A study of Mus musculus with 8 samples.

Results

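The 10 genes described here encode the replicative helicase subunits Mcm2, Mcm3, Mcm4, Mcm5, Mcm6 and Mcm7, the sliding clamp Pcna and the D-type cyclins Ccnd1, Ccnd2 and Ccnd3. They were chosen by gene symbol, and all 10 were among the 12551 genes of the count table. RNA came from whole tibialis anterior (TA) muscle, a fast-twitch muscle of the lower hindlimb, of male mice 7 weeks of age, with 4 wild-type libraries (WT, Klotho wt/wt) and 4 libraries of littermates homozygous for a null Klotho allele (KL-/-, Klotho null/null). The mice were bred from heterozygous parents on a mixed background, the mutation was present in every tissue, and the records name no treatment for either group. The samples are numbered but not stated to be separate mice, so that errors and adjusted p-values measure the spread between samples.

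MCM2 to MCM7 form a ring that is loaded onto DNA at origins before S phase, a step called licensing, and the ring then unwinds DNA ahead of the replication fork. PCNA encircles DNA behind the helicase and holds the polymerases in place. D-type cyclins bind CDK4 and CDK6, and these kinases phosphorylate RB and so free E2F factors, which are known to switch on the MCM genes and Pcna in dividing cells. Nuclei of adult myofibers do not divide, whereas satellite, endothelial, immune and stromal cells between the fibers can. Transcripts of D-type cyclins are also found in cells that do not cycle, and Ccnd3 is known for its increase as myoblasts leave the cell cycle.

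The start regions of MCM genes are shown because 4 of the 5 with sequence at hand hold a feature that the choice of genes did not use, the E2F-type motif. RefSeq windows from 250 bases before to 50 bases after the annotated gene start (GRCm38.p6, the same assembly as mm10) were searched on both strands for TTTCCCGC, TTTCGCGC, TTTGCCGC and TTTGGCGC. A window was present for 7 of the 10 genes, and Mcm4, Ccnd1 and Ccnd2 had no entry. The motif was found in 4 of the 5 MCM genes with a window (Mcm3, Mcm5, Mcm6 and Mcm7) and in none of the windows of Mcm2, Pcna and Ccnd3. It was found in 744 of all 32851 windows (2.26%) and in 434 of the 9564 genes of the count table that had a window (4.54%). The 30 bases around each match are given 5′ to 3′ on the strand of the gene, with matches in capitals and overlapping matches running together.
Mcm3, chr1:20820265-20820294: gGCGGGAAAacttgggaagtTTTGGCGCca
Mcm5, chr8:75109347-75109376: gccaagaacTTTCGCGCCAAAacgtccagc
Mcm6 distal, chr1:128359795-128359824: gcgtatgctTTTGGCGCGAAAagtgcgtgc
Mcm6 proximal, chr1:128359734-128359763: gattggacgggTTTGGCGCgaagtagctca
Mcm7 distal, chr5:138172030-138172059: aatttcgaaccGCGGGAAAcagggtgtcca
Mcm7 proximal, chr5:138171849-138171878: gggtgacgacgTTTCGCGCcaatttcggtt

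In Mcm5 and at the distal Mcm6 site, matches on opposite strands overlapped in a run of 12 bases. Counted from the gene start of RefSeq as 0, the Mcm5 run began at -153, the distal Mcm6 run at -110 and the proximal Mcm6 match at -47. The matches of Mcm3, between 19 and 45, and the proximal match of Mcm7, from 16 to 23, lay downstream of that start. The count table starts both genes further downstream, so that by its coordinates the Mcm3 matches lay before the gene and this Mcm7 match spanned its first bases. Both Mcm6 sites are seen in their context in the 250 bases before the gene start (chr1:128359706-128359955, minus strand).
Mcm6 upstream: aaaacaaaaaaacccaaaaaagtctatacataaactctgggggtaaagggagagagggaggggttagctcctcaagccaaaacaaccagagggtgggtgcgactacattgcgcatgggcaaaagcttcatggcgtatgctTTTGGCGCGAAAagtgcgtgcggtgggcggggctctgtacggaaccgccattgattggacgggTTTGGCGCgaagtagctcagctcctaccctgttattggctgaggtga
A motif match describes the letters of a window and does not show that a factor binds there.

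Among the other lists of cell cycle genes, a match was found for 8 of 19 licensing and origin firing partners, 10 of 31 clamp loading and replication fork genes and 7 of 24 D cyclin partners with a window. It was found for 1 of 25 genes of G2 and mitosis, which are known to be switched on later in the cycle.

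Libraries held between 20860262 and 29273758 counts on genes. Levels are given as CPM, the count scaled by the size of the library and its TMM factor, and a floor of 3 counts corresponded to 0.105 to 0.143 CPM. The 10 myofiber marker genes summed to 159907 to 181324 CPM in WT and to 185099 to 233039 CPM in KL-/- libraries, and none of them was at 0 in any library, so the defining markers of skeletal muscle were present. KL-/- replicate 3 carries another batch date in the sample records than the other 7 libraries. With a single library of a single genotype, that batch and that sample cannot be told apart. Of 12551 genes tested with the edgeR quasi-likelihood test, 1759 (14.0%) had a Benjamini-Hochberg adjusted p (FDR) under 0.05, with 7.35% higher and 6.67% lower in KL-/- TA.

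None of the 10 genes had an FDR under 0.05 in that test, against 14.0% of all genes. At an unadjusted p under 0.05 there was 1, Ccnd1, beside 4031 of all 12551 genes. DESeq2, limma-voom and the edgeR likelihood ratio test each called the same 1 gene, and the edgeR 3 form of the quasi-likelihood test called 0. Of all genes, these tests called 19.6%, 14.1%, 16.9% and 13.7%, in that order. The log2 fold changes, KL-/- over WT, were between -0.20 and 0.26 for the MCM genes and Pcna, close to 0 for Ccnd3 and negative for Ccnd2 and Ccnd1. The level of each gene in each library is shown in the plot of CPM by genotype.

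**Figure D1:**
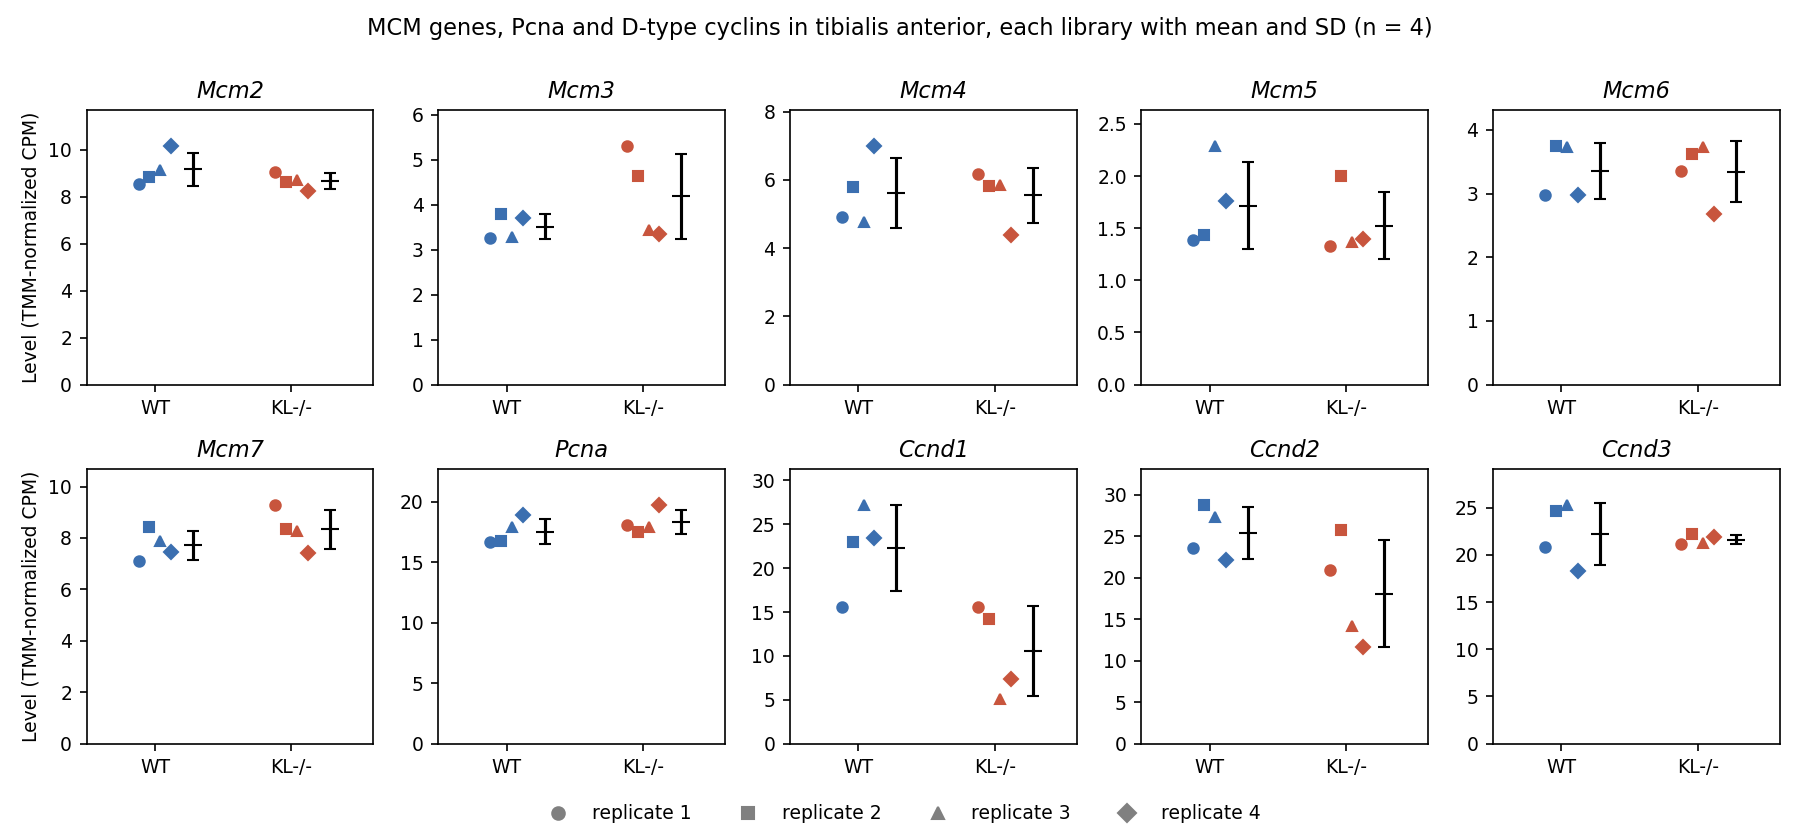
Level of each of the 10 genes in TMM-normalized CPM (linear axes from 0, each panel with its own range) in 4 WT and 4 KL-/- libraries, with replicates as symbols and the mean ± SD beside them. The MCM genes, Pcna and Ccnd3 overlap between genotypes, whereas Ccnd1 lies between 5.06 and 15.6 CPM in KL-/- and between 15.6 and 27.2 CPM in WT libraries.

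Levels were compared between genes as CPM per kilobase of counted exon. In WT muscle Pcna was highest at 13.9 ± 0.830 CPM per kilobase (SD, n = 4), followed by Ccnd3 at 9.85 ± 1.46, Ccnd1 at 5.88 ± 1.28 and Ccnd2 at 4.41 ± 0.542. The MCM genes followed with Mcm7 at 3.22 ± 0.237, Mcm2 at 2.72 ± 0.208, Mcm4 at 1.56 ± 0.286, Mcm3 at 1.22 ± 0.0952, Mcm6 at 1.16 ± 0.152 and Mcm5 at 0.499 ± 0.120 CPM per kilobase. Neighbors in this order overlapped between libraries for Ccnd1 and Ccnd2, for Mcm7 and Mcm2, and for Mcm3 and Mcm6. The subunits join the ring in equal number, yet the WT transcript level of Mcm7 per length was several times that of Mcm5. In KL-/- TA Pcna (14.5 ± 0.770 CPM per kilobase) and Ccnd3 (9.57 ± 0.216) again led and Mcm5 (0.443 ± 0.0936) was again last, but Mcm7 (3.48 ± 0.315) stood above Ccnd2 (3.14 ± 1.11) and Ccnd1 (2.79 ± 1.35). Neighbors in the KL-/- order overlapped from Mcm7 through Ccnd2 and Ccnd1 to Mcm2 and from Mcm4 through Mcm3 to Mcm6, and the other neighbors did not.

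Mcm2 (ENSMUSG00000002870.8 in GENCODE M21, mm10 chromosome 6, 88883474 to 88898780 in the count table, minus strand), a subunit that is phosphorylated as origins fire, was at 8.53, 8.83, 9.15 and 10.1 CPM in WT replicates 1 to 4. In KL-/- replicates 1 to 4 it was at 9.07, 8.64, 8.70 and 8.22 CPM. The genotypes overlapped, and the log2 fold change of -0.084 had a 95% interval of -0.28 to 0.11 (edgeR FDR = 0.545). The coefficient of variation among KL-/- libraries was 4.02%, below the 6.68% that counting error alone gives at the mean count of Mcm2.

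Mcm7 (ENSMUSG00000029730.16, chromosome 5, 138164589 to 138171862, minus strand), part of the catalytic core of the helicase, was at 7.10, 8.42, 7.89 and 7.46 CPM in WT and at 9.28, 8.35, 8.29 and 7.43 CPM in KL-/- libraries. KL-/- replicate 1 was above all other libraries and the rest overlapped, with a log2 fold change of 0.11 (95% interval -0.11 to 0.34, edgeR FDR = 0.472). When libraries were scaled by their totals alone, the value was -0.0046. Introns of Mcm7 hold the microRNA genes Mir25, Mir93 and Mir106b, which were not analysed here.

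Mcm4 (ENSMUSG00000022673.5, chromosome 16, 15623897 to 15637400, minus strand) and Mcm6 (ENSMUSG00000026355.11, chromosome 1, 128331591 to 128359656, minus strand) complete the core with Mcm7. Mcm4 was at 4.90, 5.78, 4.77 and 6.99 CPM in WT and at 6.17, 5.82, 5.84 and 4.37 CPM in KL-/- libraries. Mcm6 was at 2.98, 3.75, 3.74 and 2.98 CPM in WT and at 3.35, 3.63, 3.73 and 2.68 CPM in KL-/- libraries. Both genes covered nearly the same range in the genotypes, with log2 fold changes of -0.018 for Mcm4 (95% interval -0.38 to 0.34, edgeR FDR = 0.952) and -0.0078 for Mcm6 (95% interval -0.35 to 0.34, edgeR FDR = 0.978). The sign of both changed with the library that was left out.

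Mcm3 (ENSMUSG00000041859.10, chromosome 1, 20803014 to 20820213, minus strand) had the largest positive value of the 6. It was at 3.27, 3.79, 3.28 and 3.69 CPM in WT and at 5.30, 4.63, 3.44 and 3.35 CPM in KL-/- libraries. KL-/- replicates 1 and 2 lay above every WT library and KL-/- replicates 3 and 4 within the WT range. The log2 fold change was 0.26 (standard error 0.17, 95% interval -0.13 to 0.64, edgeR FDR = 0.325), which was 0.12 without KL-/- replicate 1 and 0.14 with library totals, and the coefficient of variation was 22.6% in KL-/- against 7.83% in WT libraries.

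Mcm5 (ENSMUSG00000005410.6, chromosome 8, 75109509 to 75128439, plus strand), which with MCM2 forms the gate through which the ring opens, was the least abundant. It was counted 34, 31, 60 and 49 times in WT and 38, 42, 33 and 37 times in KL-/- libraries, where counting error alone gives a coefficient of variation of 15.7%. The levels were 1.39, 1.43, 2.29 and 1.76 CPM in WT and 1.33, 2.00, 1.37 and 1.39 CPM in KL-/- libraries. The highest library was WT replicate 3 in WT TA and replicate 2 in KL-/- TA, and the log2 fold change was -0.20 with a 95% interval of -0.70 to 0.31 (edgeR FDR = 0.574). It was -0.026 without WT replicate 3 and -0.34 without KL-/- replicate 2. The interval holds values on both sides of 0, so the direction of Mcm5 was not resolved with these counts and this spread between samples.

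Summed over the 6 genes, MCM transcripts were at 31.1 ± 2.09 CPM in WT and at 31.6 ± 3.05 CPM in KL-/- TA (SD, n = 4). The libraries spanned 28.2 to 33.0 CPM in WT TA and 27.4 to 34.5 CPM in KL-/- TA. Within KL-/- TA, replicate 1 was highest in 4 of the 6 genes and replicate 4 was lowest in 5 of the 6. The median log2 fold change of the 6 genes was -0.013, beside -0.016 over all genes tested.

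Pcna (ENSMUSG00000027342.14, chromosome 2, 132249286 to 132253180, minus strand) had the tightest estimate of the 10. Its level was 16.7, 16.7, 17.9 and 18.9 CPM in WT and 18.1, 17.5, 17.9 and 19.7 CPM in KL-/- libraries. The genotypes overlapped with a spread of 5.96% in WT and 5.30% in KL-/- libraries, and the log2 fold change of 0.062 had a 95% interval of -0.10 to 0.23 (edgeR FDR = 0.599). Scaled by library totals alone, it was -0.057. Processed pseudogenes named Pcna-ps1 and Pcna-ps2 are annotated, as is Ccnd3-ps, and reads could have been split between these copies and their genes.

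The D-type cyclins differed from each other in how they varied. Ccnd1 (ENSMUSG00000070348.5, chromosome 7, 144929931 to 144939925, minus strand), the D cyclin best known for its induction by growth factors, was at 15.6, 23.0, 27.2 and 23.4 CPM in WT libraries. In KL-/- libraries it was at 15.6, 14.3, 5.06 and 7.43 CPM. All KL-/- libraries lay below all WT libraries, as in 9.47% of all genes (the reverse held for 10.2%). Ccnd1 was the only 1 of the 10 genes without overlap, against 19.7% of all genes in either direction. However, WT replicate 1 and KL-/- replicate 1 were nearly equal, with 382 and 446 counts, and KL-/- replicates 3 and 4 lay far below the rest.

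Ccnd1 averaged 22.3 ± 4.85 CPM (SD, n = 4) in WT TA against 10.6 ± 5.12 CPM (SD, n = 4) in KL-/- TA. The log2 fold change was -1.08 (standard error 0.32, 95% interval -1.80 to -0.36). This did not pass the threshold (edgeR quasi-likelihood FDR = 0.0534), and 1.87% of all genes had a lower log2 fold change. The FDR was 0.00583 with DESeq2, 0.0128 with the edgeR likelihood ratio test and 0.0373 with limma-voom. Without KL-/- replicate 3, whose batch date differs, the log2 fold change was -0.85 (edgeR FDR = 0.0899). It was -0.94 without KL-/- replicate 4 (edgeR FDR = 0.137). Without KL-/- replicate 1 or 2 the edgeR FDR was 0.0414 or 0.0357. Leaving out WT replicate 1, 2, 3 or 4 gave an edgeR FDR of 0.0561, 0.112, 0.135 or 0.0873.

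Ccnd2 (ENSMUSG00000000184.12, chromosome 6, 127125709 to 127151048, minus strand) was at 23.6, 28.8, 27.4 and 22.1 CPM in WT and at 20.9, 25.7, 14.2 and 11.6 CPM in KL-/- libraries. As with Ccnd1, KL-/- replicates 3 and 4 were the lowest libraries, whereas KL-/- replicate 2 lay inside the WT range. The log2 fold change was -0.49 (standard error 0.22, 95% interval -0.99 to 0.0014, edgeR FDR = 0.157). Without KL-/- replicate 2 it was -0.70 (edgeR FDR = 0.0337), and without KL-/- replicate 4 it was -0.33 (edgeR FDR = 0.298).

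Ccnd3 (ENSMUSG00000034165.16, chromosome 17, 47505051 to 47599688, plus strand), the D cyclin of differentiated muscle, was at 20.9, 24.6, 25.3 and 18.3 CPM in WT and at 21.2, 22.2, 21.2 and 21.9 CPM in KL-/- libraries. The 4 KL-/- libraries lay inside the WT range with a coefficient of variation of 2.26%, against 14.8% in WT. The KL-/- value is below the 4.27% that counting error alone gives at the mean count of Ccnd3. The log2 fold change was -0.041 (95% interval -0.27 to 0.19, edgeR FDR = 0.811).

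Exons of other genes share bases with some of these loci, and whether reads were counted by strand is not given in the sources used here. Ccnd3 shares 358 exonic bases with Bysl on the other strand, which is also counted in the table. In the GENCODE M21 annotation of mm10, the gene LTO1 on the other strand shares 1100 exonic bases with Ccnd1, Gm43126 shares 372 with Ccnd2 and Cops6 shares 58 with Mcm7.

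**Figure D2:**
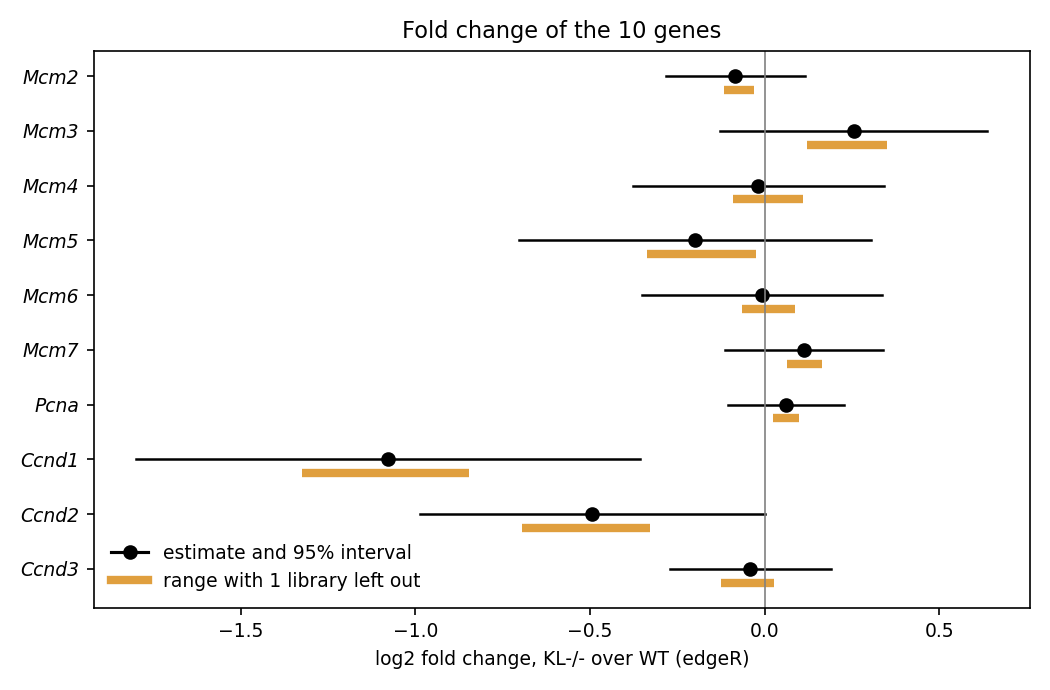
The log2 fold change (KL-/- over WT, x axis) of each gene with its 95% interval from the edgeR quasi-likelihood fit (black) and the range of values with each of the 8 libraries left out in turn (orange). The interval of Ccnd1 runs from -1.80 to -0.36 and its range from -1.33 to -0.85, while the intervals of the other 9 genes include 0.

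Shares of the D cyclin transcripts within a library do not depend on how libraries are scaled, and they are given as shares of the summed CPM per kilobase, with no test. Ccnd3 made up 53.0, 49.6, 48.4 and 44.7% in WT libraries and 54.8, 54.4, 71.3 and 70.9% in KL-/- libraries. Every KL-/- library was above every WT library, by a small margin for replicates 1 and 2 and a wide one for replicates 3 and 4. Ccnd1 made up 29.1% ± 4.52 in WT and 17.3% ± 6.25 in KL-/- TA (SD, n = 4), with overlap between KL-/- replicate 1 (24.0%) and WT replicate 1 (23.6%).

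Ccnd2 had a share of 22.0% ± 1.33 in WT and 19.8% ± 4.19 in KL-/- TA, a difference of -2.14 percentage points that was -0.459 without KL-/- replicate 4. The sum of the 3 was 20.1 ± 2.80 CPM per kilobase in WT and 15.5 ± 2.44 in KL-/- TA. The ratio of Ccnd1 to Ccnd3 per length was 0.445 to 0.764 in WT libraries and 0.142 to 0.437 in KL-/- libraries, again without overlap.

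**Figure D3:**
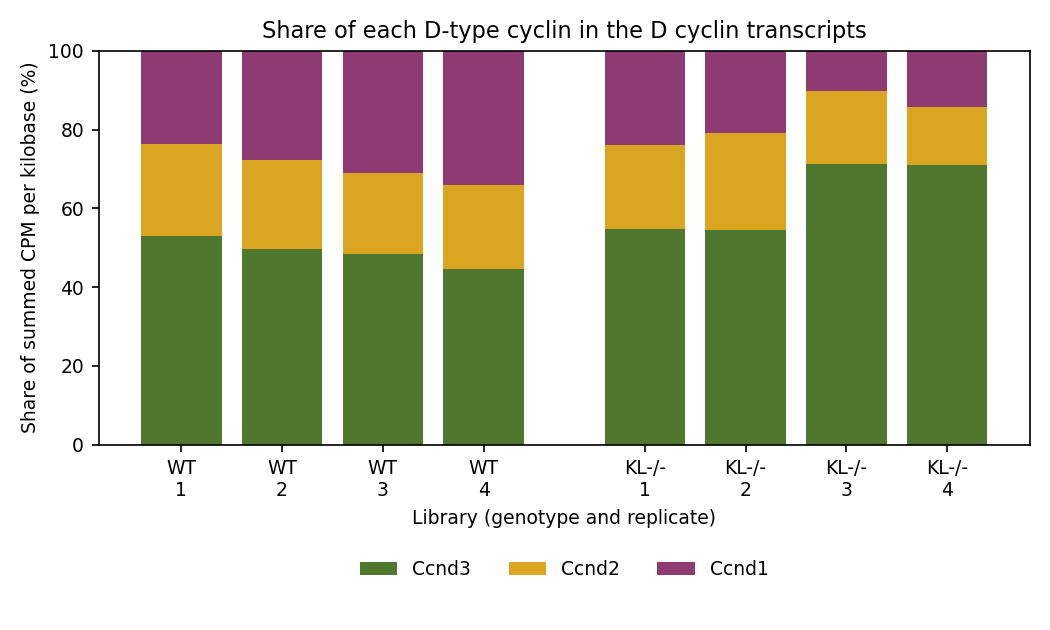
Share of Ccnd3, Ccnd2 and Ccnd1 (stacked bars, percent of their summed CPM per kilobase) in each of the 8 libraries. Ccnd3 takes 54.4 to 71.3% in KL-/- and 44.7 to 53.0% in WT libraries.

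The genes that work directly with the MCM ring passed the test at a share near that of all genes (14.0%). Of 25 licensing and origin firing partners, 20 were measured, of which 1 was higher and 1 lower in KL-/- TA with an FDR under 0.05, and the list median log2 fold change was 0.032. Gmnn, which encodes geminin, the inhibitor of the licensing factor CDT1, fell from 4.45 ± 0.322 to 2.68 ± 0.662 CPM (SD, n = 4, log2 fold change -0.73, edgeR FDR = 0.0257), with every KL-/- library below every WT library. Orc2, a subunit of the origin recognition complex, rose from 17.2 ± 1.55 to 22.2 ± 1.64 CPM (log2 fold change 0.37, edgeR FDR = 0.0264). The licensing factors Cdt1 (0.583 and 0.524 CPM in WT and KL-/- TA, edgeR FDR = 0.825) and Cdc6 (0.499 and 0.526 CPM, edgeR FDR = 0.987) were near the floor, with 4 to 19 counts per library. With 1 library left out in turn, Gmnn passed in 3 of the 8 fits and Orc2 in 2, and Orc2 did not pass with library totals.

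Of 34 clamp loading and replication fork genes, 29 were measured, 3 were higher, 1 was lower and 25 did not pass, a share near the 14.0% of all genes, with a median log2 fold change of 0.039. Pold2, a subunit of DNA polymerase delta that PCNA tethers, rose from 23.3 ± 2.25 to 31.7 ± 3.07 CPM (log2 fold change 0.44, edgeR FDR = 0.0185). Rpa1, which binds single-stranded DNA in replication and repair, rose from 79.5 ± 3.64 to 95.7 ± 5.45 CPM (log2 fold change 0.27, edgeR FDR = 0.0226). Pole, the catalytic subunit of polymerase epsilon, rose with a log2 fold change of 0.68 (edgeR FDR = 0.0340). Rrm1, the large subunit of the ribonucleotide reductase that makes deoxyribonucleotides, fell from 47.4 ± 4.61 to 36.0 ± 5.59 CPM with overlap (log2 fold change -0.40, edgeR FDR = 0.0444). With 1 library left out, Rpa1 passed in 5 of the 8 fits, Pold2 in 4, and Pole and Rrm1 in 1 each, the fit without KL-/- replicate 2. Rpa1 and Pole did not pass with library totals.

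Of 29 partners of the D cyclins in the RB and E2F pathway, 26 were measured, of which 3 were higher, 2 lower and 21 did not pass, beside 7.35% higher and 6.67% lower among all genes, with a median log2 fold change of 0.10. This median was -0.014 with library totals. Tfdp2, the dimer partner of E2F factors, rose from 63.9 ± 8.55 to 117 ± 24.3 CPM (log2 fold change 0.88, edgeR FDR = 0.00926). Rbl2, the RB relative p130 that holds E2F target genes silent in resting cells, rose from 71.4 ± 9.60 to 100 ± 11.0 CPM (log2 fold change 0.49, edgeR FDR = 0.0216). In both genes every KL-/- library was above every WT library.

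Cdkn1a, the CDK inhibitor p21, was counted 406, 387, 350 and 467 times in WT and 776, 337, 1012 and 807 times in KL-/- libraries. It rose from 16.1 ± 1.96 to 28.9 ± 10.6 CPM with overlap (log2 fold change 0.84, edgeR FDR = 0.0457), and KL-/- replicate 2 did not share the increase of the other 3. Cdkn2b, the inhibitor p15 of CDK4 and CDK6, fell from 1.67 ± 0.524 to 0.631 ± 0.0317 CPM (log2 fold change -1.38, edgeR FDR = 0.0133). E2f3, an activating E2F factor, fell from 23.9 ± 1.08 to 19.3 ± 1.23 CPM (log2 fold change -0.30, edgeR FDR = 0.0242).

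The kinases that D cyclins activate did not pass. Cdk4 was at 24.0 ± 1.09 CPM in WT TA and 21.7 ± 1.88 CPM in KL-/- TA (edgeR FDR = 0.230), and Cdk6 at 1.82 ± 0.519 and 2.16 ± 0.868 CPM (edgeR FDR = 0.679). Rb1 was at 25.5 ± 0.854 and 27.9 ± 1.76 CPM (edgeR FDR = 0.201). With 1 library left out, Tfdp2 and Cdkn2b passed in all 8 fits, Rbl2 in 6, E2f3 in 2 and Cdkn1a in 1, the fit without KL-/- replicate 2. Cdkn1a did not pass with library totals or limma-voom.

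The genes of G2 and mitosis had mostly negative values in KL-/- TA, in a list where 7 of the measured genes were under 1 CPM. Of 30 listed genes 14 were measured, and the other 16 were not analysed here. The median log2 fold change of the 14 was -1.22, beside -0.013 for the MCM genes, 2 passed the threshold, a share near the 14.0% of all genes, and 12 had a negative value. The median was -0.77 without WT replicate 3, and -0.77 over the 5 genes with at least 10 counts in every library. Cenpf was counted 12, 22, 38 and 22 times in WT and 3, 15, 2 and 0 times in KL-/- libraries. Bub1b, counted more often in KL-/- libraries, went the other way. Such genes could be measured through 1 genotype alone, so the median describes only the measured genes. Without KL-/- replicate 2, 6 of the 14 passed, and without KL-/- replicate 4, 1 did, beside 22.0% and 6.20% of all genes. Aurka, a mitotic kinase, fell from 6.15 ± 1.04 to 2.36 ± 0.842 CPM (log2 fold change -1.40, edgeR FDR = 0.00696). Tpx2, the spindle factor that activates it, fell from 6.18 ± 2.62 to 2.45 ± 0.511 CPM (log2 fold change -1.36, edgeR FDR = 0.0166). Aurka passed in all 8 fits with 1 library left out, and Tpx2 in all but the fit without KL-/- replicate 4.

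Mki67, which marks cycling cells, was counted 32, 85, 192 and 61 times in WT and 10, 78, 7 and 8 times in KL-/- libraries. Top2a, a topoisomerase of dividing cells, was counted 13, 45, 102 and 58 times in WT and 7, 42, 3 and 8 times in KL-/- libraries. KL-/- replicate 2 was within the WT range in both genes and the other 3 KL-/- libraries were below it. Neither gene passed (edgeR FDR = 0.160 for Mki67 and 0.130 for Top2a). Summed, the mitotic genes were at 21.6 to 42.9 CPM in WT libraries, at 25.9 CPM in KL-/- replicate 2 and at 13.4 to 14.3 CPM in the other 3.

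Mcm5 followed this order in part. WT replicate 3 was highest in both Mcm5 (2.29 CPM) and the mitotic sum (42.9 CPM) among WT libraries, and KL-/- replicate 2 was highest in both among KL-/- libraries (2.00 and 25.9 CPM). The sum of all 6 MCM genes did not follow it, with 34.5 CPM in KL-/- replicate 1, where the mitotic sum was 14.3 CPM. Within KL-/- TA, Mcm5 shared only the highest library, on 42 counts against 33 to 38 in the others. Ccnd3 was also highest in WT replicate 3 (25.3 CPM) and KL-/- replicate 2 (22.2 CPM) within its genotype.

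**Figure D4:**
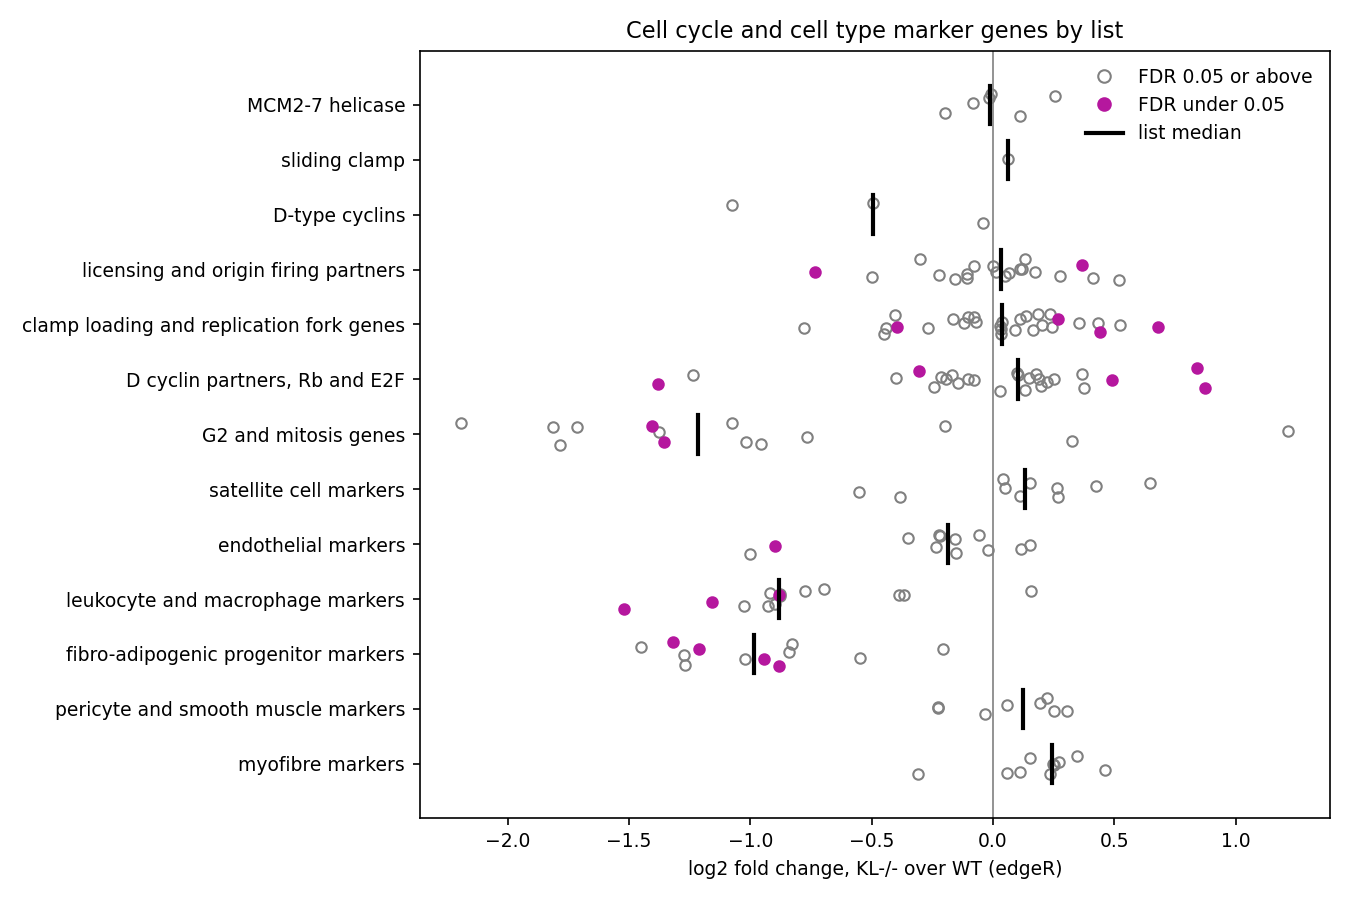
The log2 fold change (KL-/- over WT, x axis) of every measured gene of the 13 lists (y axis), with genes past an FDR of 0.05 filled and the list median as a bar. The MCM genes lie between -0.20 and 0.26, and the G2 and mitosis genes have a median of -1.22, which was -0.77 without WT replicate 3.

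Some markers of the cells that can divide in muscle were lower in KL-/- TA, and in whole muscle fewer cells of a type cannot be told apart from less RNA per cell. All 12 fibro-adipogenic progenitor markers, from the stromal cells between fibers, were measured, and 0 were at 0 counts in any library. All 12 had a negative log2 fold change, with a median of -0.98. Past the threshold were 4 (Dpt, Dcn, Gsn and Lum), beside 14.0% of all genes, of which 6.67% were lower and 7.35% higher. Their summed level was 1631 to 4726 CPM in WT and 872 to 2168 CPM in KL-/- libraries. The collagen genes Col1a1, Col1a2 and Col3a1 made up 576 to 3157 CPM of the WT sums, and the other 9 markers, in a split chosen after seeing the data, summed to 1054 to 1569 CPM in WT and to 499 to 1009 CPM in KL-/- libraries, without overlap. The lowest sums of all 12 were in KL-/- replicates 3 (872 CPM) and 4 (1125 CPM), which were also the lowest libraries for Ccnd1 and Ccnd2. WT replicate 4 had a sum of 1631 CPM over all 12 markers, with Ccnd1 at 23.4 CPM. That sum was below those of KL-/- replicates 1 (1869 CPM) and 2 (2168 CPM), where Ccnd1 was lower. Over the 9 markers without the collagens the order was the other way. WT replicate 4 was at 1054 CPM there, above KL-/- replicates 1 (1009 CPM) and 2 (768 CPM). With 1 library left out, 0 of the 12 passed without WT replicate 2 or 3 or KL-/- replicate 3 or 4, beside 6.07 to 6.21% of all genes. Without WT replicate 4, 6 passed, beside 10.9% of all genes. DESeq2 called 7, beside 19.6% of all genes.

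Of 14 leukocyte and macrophage markers, 14 were measured, 3 were lower (Itgam, Adgre1 and Laptm5) and the median was -0.88. Of all genes 14.0% passed, with 6.67% lower. DESeq2 called 8, beside 19.6% of all genes. In the edgeR test 0 passed without WT replicate 2 or 3 or KL-/- replicate 3 or 4, beside 6.07 to 6.21% of all genes. Their sum was 78.6 to 161 CPM in WT libraries and 53.9 to 94.4 CPM in KL-/- libraries. Of 12 endothelial markers, 1 passed, which was lower, beside the 14.0% of all genes that passed and the 6.67% that were lower. It was Kdr, the receptor for VEGF, at 102 ± 23.6 CPM in WT TA and 54.8 ± 4.90 CPM in KL-/- TA (log2 fold change -0.90, edgeR FDR = 0.00781). Pecam1 was at 113 ± 19.9 and 109 ± 2.64 CPM (edgeR FDR = 0.744), Ptprc at 3.20 ± 1.31 and 1.77 ± 0.709 CPM (edgeR FDR = 0.107) and Pdgfra at 24.4 ± 9.54 and 13.6 ± 5.24 CPM (edgeR FDR = 0.110). The part of these cells in the values of Ccnd1, Ccnd2 and the mitotic genes was not tested.

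None of the 10 satellite cell markers passed the edgeR quasi-likelihood test, with 1 at an unadjusted p under 0.05 and 1 by DESeq2. Pax7, the marker of muscle stem cells, was at 4.63 ± 1.04 CPM in WT TA and 5.57 ± 0.942 CPM in KL-/- TA (edgeR FDR = 0.343). None of the 8 pericyte and smooth muscle markers passed, with 0 at an unadjusted p under 0.05 and 0 by DESeq2. None of the 10 myofiber markers passed the edgeR test, with 2 at an unadjusted p under 0.05 and 4 by DESeq2. Over all genes, 4031 of 12551 had an unadjusted p under 0.05, and DESeq2 called 19.6%.

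**Figure D5:**
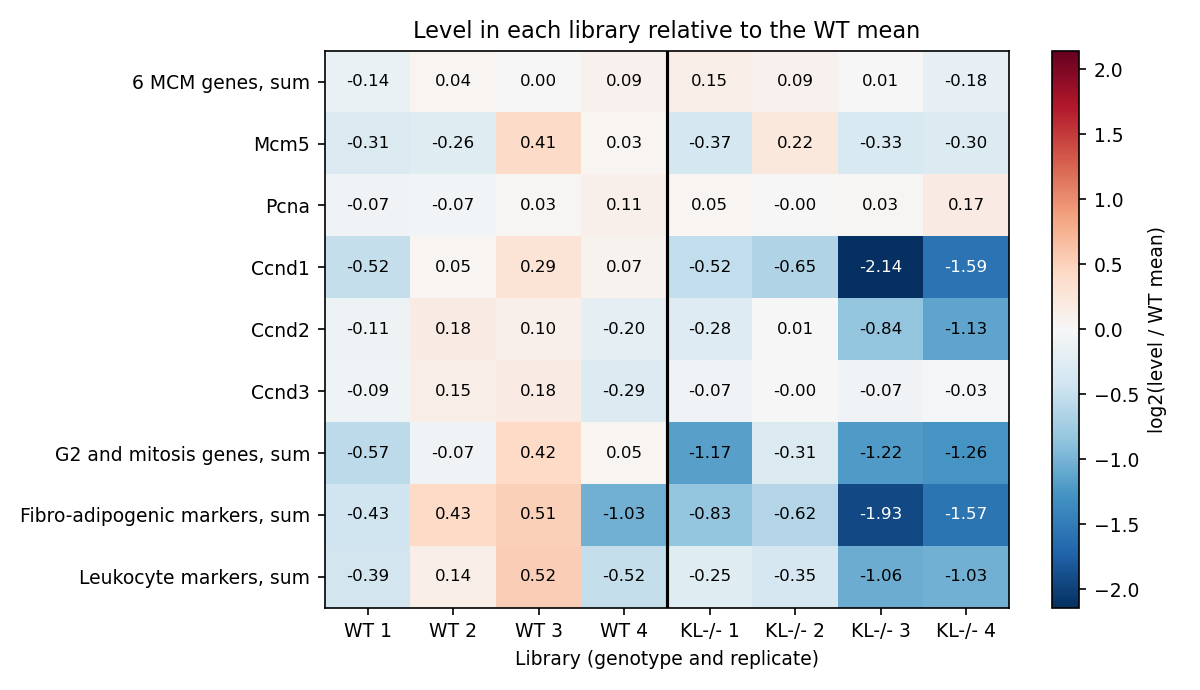
Level of selected genes and summed lists in each library as log2 of the ratio to the WT mean (color and printed value). Ccnd1 reaches -2.14 and -1.59 in KL-/- replicates 3 and 4, where the fibro-adipogenic marker sum is at -1.93 and -1.57, while the MCM sum stays between -0.18 and 0.15 in all 8 libraries. In WT replicate 4 the fibro-adipogenic marker sum is at -1.03 and Ccnd1 at 0.07. This sum includes the collagen genes. Without them (not shown) WT replicate 4 is at 1054 CPM, above the KL-/- libraries at 499 to 1009 CPM.

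Genes with the most similar profile were sought over the 8 libraries among those of comparable spread, by the root mean square difference between centered log2 CPM values. The mean profile of the MCM genes was closest to Nkap, Dhx16, Eif1a, Zscan29 and Morc3, at 0.056 to 0.065, none of which had an FDR under 0.05. Pcna was closest to Nsun5, Dgkd and Nmd3, at 0.033 to 0.037. Ccnd3 was closest to Tspan13, Coro1b and Hdac1, at 0.055 to 0.062.

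Ccnd1 was closest to Adgrd1, Dock2 and Pqlc3, at 0.19 to 0.21. Of these, Pqlc3 had an FDR under 0.05 (log2 fold change -1.24, edgeR FDR = 0.0382). Ccnd2 was closest to the interferon-inducible GTPase gene Irgm2, the chemokine gene Ccl6 and the complement gene Cfb, at 0.115 to 0.120. Irgm2 had a log2 fold change of -0.51 (edgeR FDR = 0.199), Ccl6 of -0.54 (edgeR FDR = 0.155) and Cfb of -0.63 (edgeR FDR = 0.144).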

How the data were processed

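Reads from TA RNA were aligned by the authors (STAR, mm10), alignments of low quality were dropped, and raw featureCounts counts per gene were deposited. The strand setting and annotation version are not given in the sources used here. The study's methods name mRNA sequencing, and the sample records name total RNA.

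Counts were analyzed in R 4.3.3 with edgeR 4.0.16. The default low-count filter kept all 12551 genes. TMM factors, genotype as the only term and the quasi-likelihood test in its edgeR 4 form were used with Benjamini-Hochberg adjustment over all genes. Standard errors and intervals came from the test statistic. Alternatives were DESeq2 1.42.0, limma-voom (limma 3.58.1), the edgeR likelihood ratio test, RLE factors, library totals, other filters, the replicate number as a block and each library left out. The edgeR 3 quasi-likelihood form was added after seeing the data.

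The 10 genes and all lists were chosen with earlier results of these data known. Named genes are the 10, listed genes past an FDR of 0.05 (at most 4 per list and direction), fixed landmark genes and the genes nearest in profile. Floors from counts cover counting error only, whereas the intervals of the log2 fold changes include the spread between samples. Kl was not analysed here.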

Additional observations from a re-analysis of the deposited data

Results flagged for a closer look

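Mcm5 in KL-/- replicate 2 stood apart from the other KL-/- libraries. It was at 2.00 CPM there, and the next library was at 1.39 CPM. The gap was 0.897 of the range of the 4 libraries, above Dixon's 95% critical value for 4 samples. The counts behind these values were 42 in replicate 2 and 33 to 38 in the others. Levels of the 10 genes were examined in both genotypes, which makes 20 groups, and chance flags about 1 in 20.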

How the results depend on the processing

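No choice of scaling, filter or test gave an MCM gene, Pcna or Ccnd3 an FDR under 0.05 in the 17 alternatives run for each. Of the 17, the fit with no filter could not differ from the main fit, because the default filter had kept every gene. With library totals, the median over all genes was -0.13 in place of -0.016 on the log2 scale. Then 18.8% of 2619 called genes were higher in KL-/- muscle, against 52.4% of 1759, and the values of Mcm7 (-0.0046) and Pcna (-0.057) changed sign. With each library left out, values ranged from -0.089 to 0.11 for Mcm4, from -0.065 to 0.087 for Mcm6 and from -0.13 to 0.027 for Ccnd3.

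The number of the 10 genes past the threshold was 1 with library totals, 1 with DESeq2, 1 with the likelihood ratio test and 1 with limma-voom, Ccnd1 in each, and 0 to 2 with each library left out. The shares of all genes were 20.9, 19.6, 16.9 and 14.1% in that order, and 6.07 to 22.0% with each library left out. Ccnd1 stayed negative in all 17 alternatives, from -1.33 to -0.85, with an FDR of 0.00583 to 0.137. Over all genes, 762 to 2755 passed with each library left out, the fewest without KL-/- replicate 3 and the most without KL-/- replicate 2. Of the genes in the other lists, 21 passed, 36 with DESeq2 and 5 to 32 with each library left out, the fewest without WT replicate 2 or KL-/- replicate 4. The shares of all genes in these fits were 14.0%, 19.6% and 6.07 to 22.0%. With each library left out, the difference in share, KL-/- minus WT, ranged from -14.0 to -9.38 percentage points for Ccnd1. It ranged from -3.77 to -0.459 for Ccnd2 and from 11.1 to 16.7 for Ccnd3. As shares of counts, the differences were -11.6, -1.18 and 12.8 percentage points for Ccnd1, Ccnd2 and Ccnd3.

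With the replicate number as a block, 671 genes (5.35% of all) and 8 of the list genes passed, and Ccnd1 had a log2 fold change of -1.16 (edgeR FDR = 0.102). The deviations of same-numbered WT and KL-/- libraries correlated at -0.15, 0.18, -0.37 and 0.017 over genes, so the number is not taken as a pairing, and only WT replicate 2 correlated best with its own number. Counts of 31 to 60 for Mcm5 and of 4 to 19 for Cdt1 and Cdc6 limit what could be detected for these genes.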

Other observations

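Bub1b, a spindle checkpoint kinase, and Anln, which encodes the cytokinesis protein anillin, were the 2 measured genes of G2 and mitosis with a positive log2 fold change, and both were picked out after their values had been seen. Bub1b was counted 7, 13, 24 and 3 times in WT and 33, 13, 32 and 33 times in KL-/- libraries (log2 fold change 1.22, edgeR FDR = 0.114). KL-/- replicate 2, where Mki67 and Top2a were highest among KL-/- libraries, was the lowest of them for Bub1b. Anln was at 2.16 ± 0.497 CPM in WT TA and 2.72 ± 0.535 CPM in KL-/- TA (SD, n = 4, edgeR FDR = 0.306).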
